A study of Mus musculus with 9 samples.

Results

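The treatment difference described here is that between 3 libraries from aged mice given EGCG (epigallocatechin gallate, a green tea catechin) and 3 libraries from aged mice without it. All 9 libraries of the series, the other 3 from young mice, are labelled as mouse retina, and none of the groups is said to carry a genetic change. The members are all genes with at least 10 counts in at least 3 of the 6 libraries compared: 12667 of the 16231 genes in the deposited count table, with 3564 left out. The sources used here give no age, sex, strain, dose, route or duration. They also do not say that each library is a separate animal, and p-values then cover only the spread among libraries, which can be technical. The series title names Cyfip2 and AKT as the pathway of interest, and the 2 aged groups answer which transcripts differed with the treatment.

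As background, EGCG is a polyphenol studied for its effects on oxidative stress, inflammation and lipid and glucose metabolism. Liver transcripts respond to feeding and fasting through insulin, glucagon and glucocorticoid signals, and many of them cycle over the day. Immediate early and heat shock genes respond within a short time to stress, growth factors or handling of tissue.

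The 6 libraries held 35033449 to 39922044 counts each, with TMM scaling factors of 1.028 to 1.056. Levels are given as CPM (counts scaled to library size with these factors) and changes as log2 fold changes, treated over untreated aged, with the standard error (SE) for the genes given in full. Young means are set beside them as values, without a test. The biological coefficient of variation was 5.38% in the aged and 5.48% in the treated libraries. The tissue label was checked against defining markers. Of rod markers, Sag had 1 count over the 3 aged and 2 over the 3 treated libraries, Pde6b 1 and 0, and Cnga1 0 and 1, and Best1 of the retinal pigment epithelium had 4 and 0. Other markers, some of which liver is also known to express, had more: the rod genes Gnat1 1210 and 519 and Rom1 151 and 240, and on the pigment epithelium list Lrat 1817 and 851, Rdh5 1473 and 1654, Mitf 352 and 359 and Ttr 498826 and 551975. Rpe65, Nrl and Prph2 were not analysed here. The hepatocyte product Alb (serum albumin) stood at 81911 CPM in the aged and 87547 CPM in the treated libraries. The transcripts described below are therefore named by what their genes are known to do, with liver functions prominent among them, and not as those of retinal cells.

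With p-values from the quasi-likelihood test of edgeR, adjusted over all genes tested by the Benjamini-Hochberg method, 8059 of 12667 genes differed between treated and untreated aged libraries at an adjusted p under 0.05, which is 63.6% of genes. Of these, 4044 were higher in the treated libraries (31.9% of genes tested) and 4015 lower (31.7%). The 2 directions were alike in number but not in size. At least 2-fold changes were called for 1668 genes (13.2%), of which 446 were higher (3.52%) and 1222 lower (9.65%). Most were of genes of low level: 125 were higher and 301 lower under 1 CPM, and 178 and 477 at 1 to 5 CPM. At 20 to 100 CPM 52 were higher and 158 lower, and at 100 to 1000 CPM 24 and 37. Among changes of 1.2 to 1.5-fold, 1868 genes were higher and 1205 lower. Among changes of 4 to 8-fold, 37 were higher and 186 lower, and at 16-fold and over 6 were higher and 31 lower. The median change was 0.43 over the genes called higher and -0.59 over those called lower, against 0.01 over all genes tested and a median SE of 0.09. The 3 treated and the 3 untreated values did not overlap for 8532 genes (67.4%), including 7705 of the genes called.

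**Figure D1:**
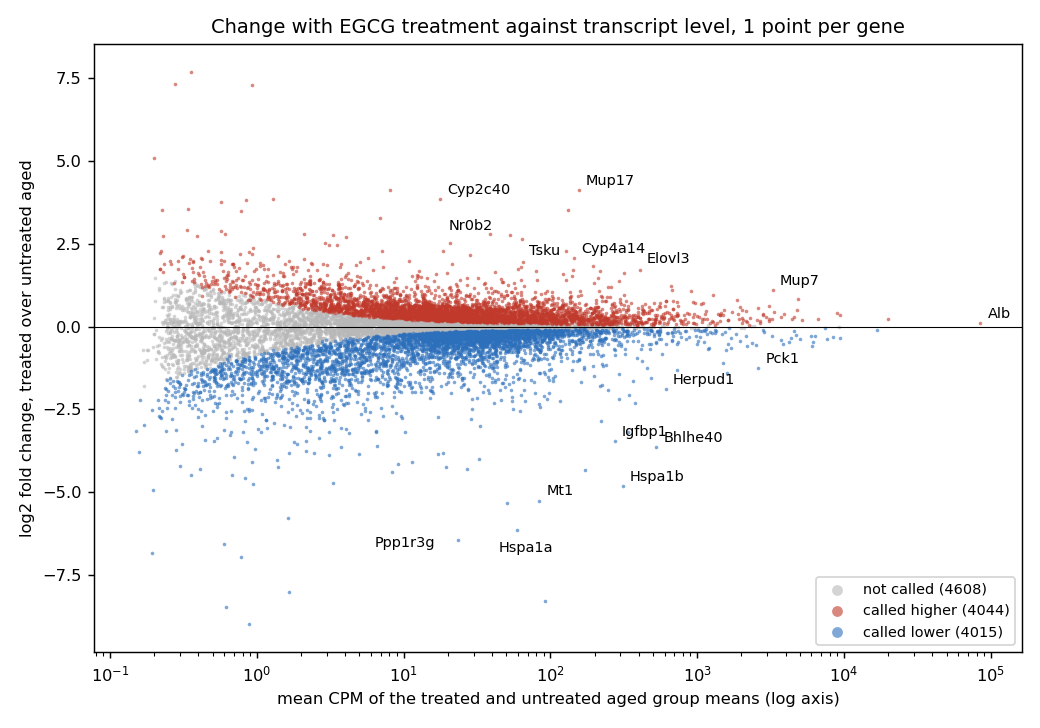
Log2 fold change of each of the 12667 genes (y axis, treated over untreated aged) against its mean level in CPM (x axis, log scale), with genes called higher in red, lower in blue and not called in grey. The blue points reach further from 0 than the red ones, and named genes lie at both ends.

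A gene that was not called is not thereby shown to be equal. Of the 4608 genes without a call, 1447 had a 95% confidence interval of the fold change that lay within 1.2-fold on either side, while the interval of 1807 reached past 1.5-fold. Calls also depended on level. Of genes under 1 CPM 30.2% were called, of those at 20 to 100 CPM 74.8%, and of those at 1000 CPM or more 94.3%. In the last band most changes were small: 4 of 123 genes changed by at least 2-fold.

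In terms of transcripts and not genes, the treated libraries held more of what was higher. This direction follows from sorting genes by their call in these same libraries, so only the size of the shift is described. Genes called higher took 47.1% of counts in the aged and 57.8% in the treated libraries, and genes called lower 40.6% and 30.1%. The added CPM was spread over many genes. The 10 largest gains made up 21.8% of all gain, and 86 genes held 50% of it. The largest gains were those of secreted proteins and enzymes of hepatocytes. Alb gained 5636 CPM, Apoe (apolipoprotein E) 3176 CPM and Mup3, a urinary pheromone carrier, 2731 CPM. Scd1, the desaturase that makes oleate, rose from 8146, 8249 and 8286 CPM to 10498, 10377 and 10391 CPM (0.34, SE 0.015, adjusted p = 5.2e-23). The largest losses were those of Pzp, a broad protease inhibitor (-2436 CPM), the complement component C3 (-2179 CPM), Pck1, which commits carbon to gluconeogenesis (-2137 CPM), and Ahsg, the plasma protein fetuin A (-2023 CPM). Of these, only Pck1 changed by more than 2-fold. The rise of Alb was 0.10 on the log2 scale, and it turned to -0.05 when the trend with gene length, described next, was removed.

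**Figure D2:**
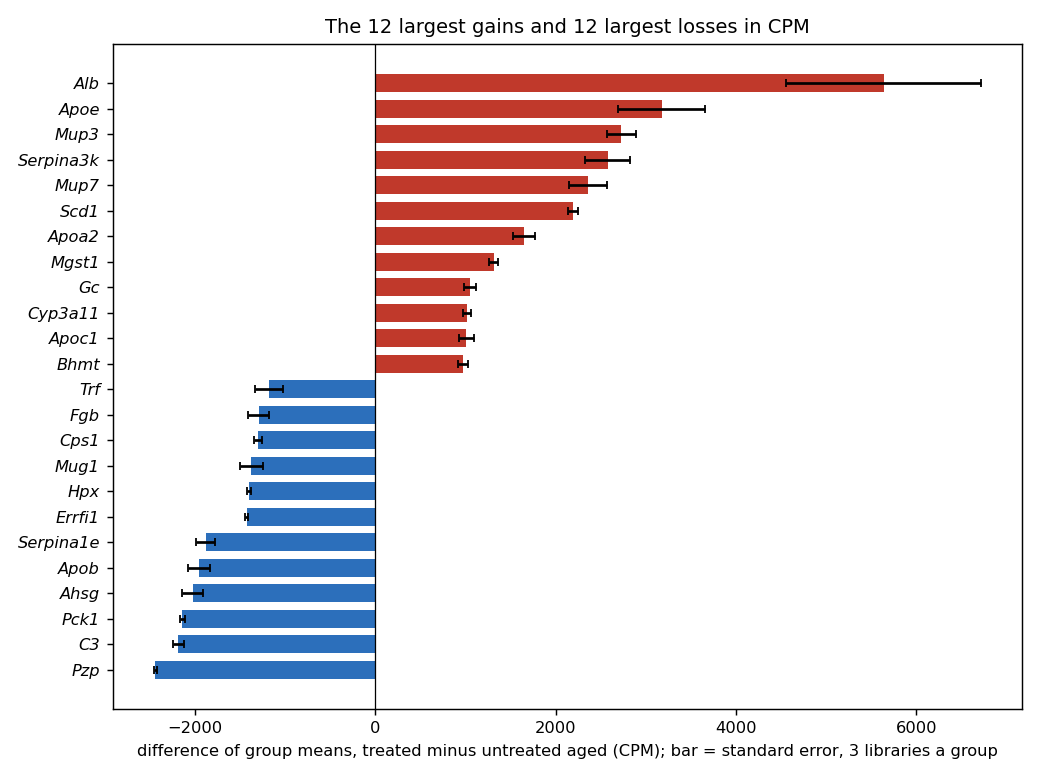
Difference of group means in CPM (x axis) for the 12 genes with the largest gain (red) and the 12 with the largest loss (blue) in treated against untreated aged libraries, with standard errors over 3 libraries a group. Alb gained the most, 5636 CPM, and Pzp lost the most, 2436 CPM.

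The change ran with gene length. Over 615 genes under 1000 bp the median change was 0.35, with 400 genes higher and 42 lower, and over 2849 genes of 6000 bp and over it was -0.25, with 458 higher and 1459 lower. Each of the 3 treated libraries showed this by itself among genes of at least 20 CPM. Relative to the aged mean, their medians were 0.33 to 0.39 for genes under 1000 bp and -0.22 to -0.26 for the longest genes. Young libraries stood at 0.22 to 0.25 for the shortest genes and at -0.01 to -0.03 for the longest. The cause was not tested. Lists are therefore given with their median and, after "or", the median with the trend removed, which brought the length bands to -0.02 or -0.03.

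**Figure D3:**
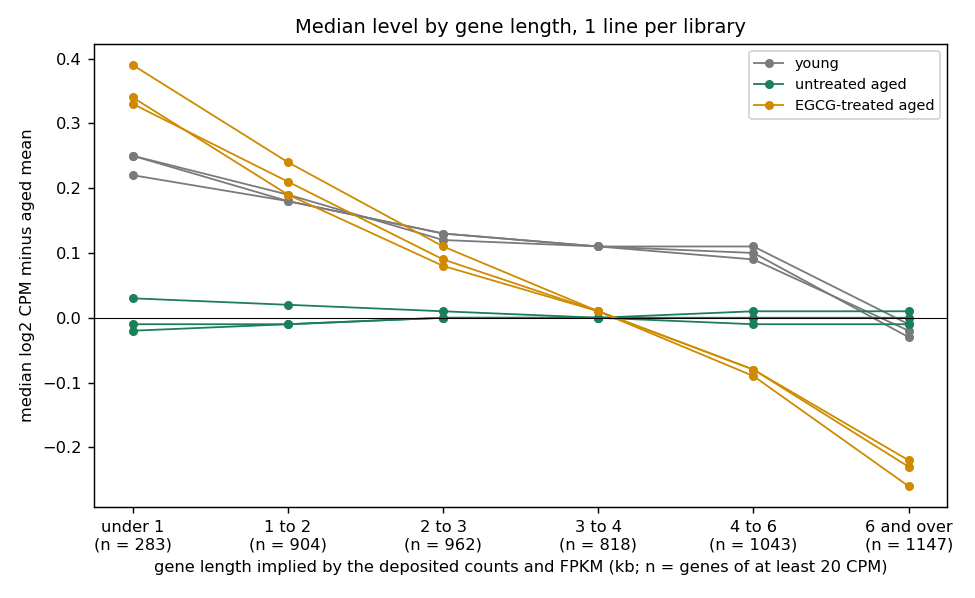
Median log2 CPM minus the aged mean (y axis) over genes of at least 20 CPM in 6 bands of gene length (x axis), with 1 line per library. The 3 treated lines fall from 0.33 to 0.39 in the shortest band to -0.22 to -0.26 in the longest, and the aged lines stay near 0.

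Gene lists are described by how many tested members were called in each direction, to be read against 31.9% higher and 31.7% lower among all genes. These shares depended on level: 9.08% were higher and 21.2% lower under 1 CPM, against 52.8% and 31.7% at 100 to 1000 CPM. Urea cycle, bile acid, NRF2 target and apolipoprotein lists had a median level in the latter band and are better read against its shares. The lists run from major urinary proteins, nearly all higher, to immediate early genes, mostly lower.

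**Figure D4:**
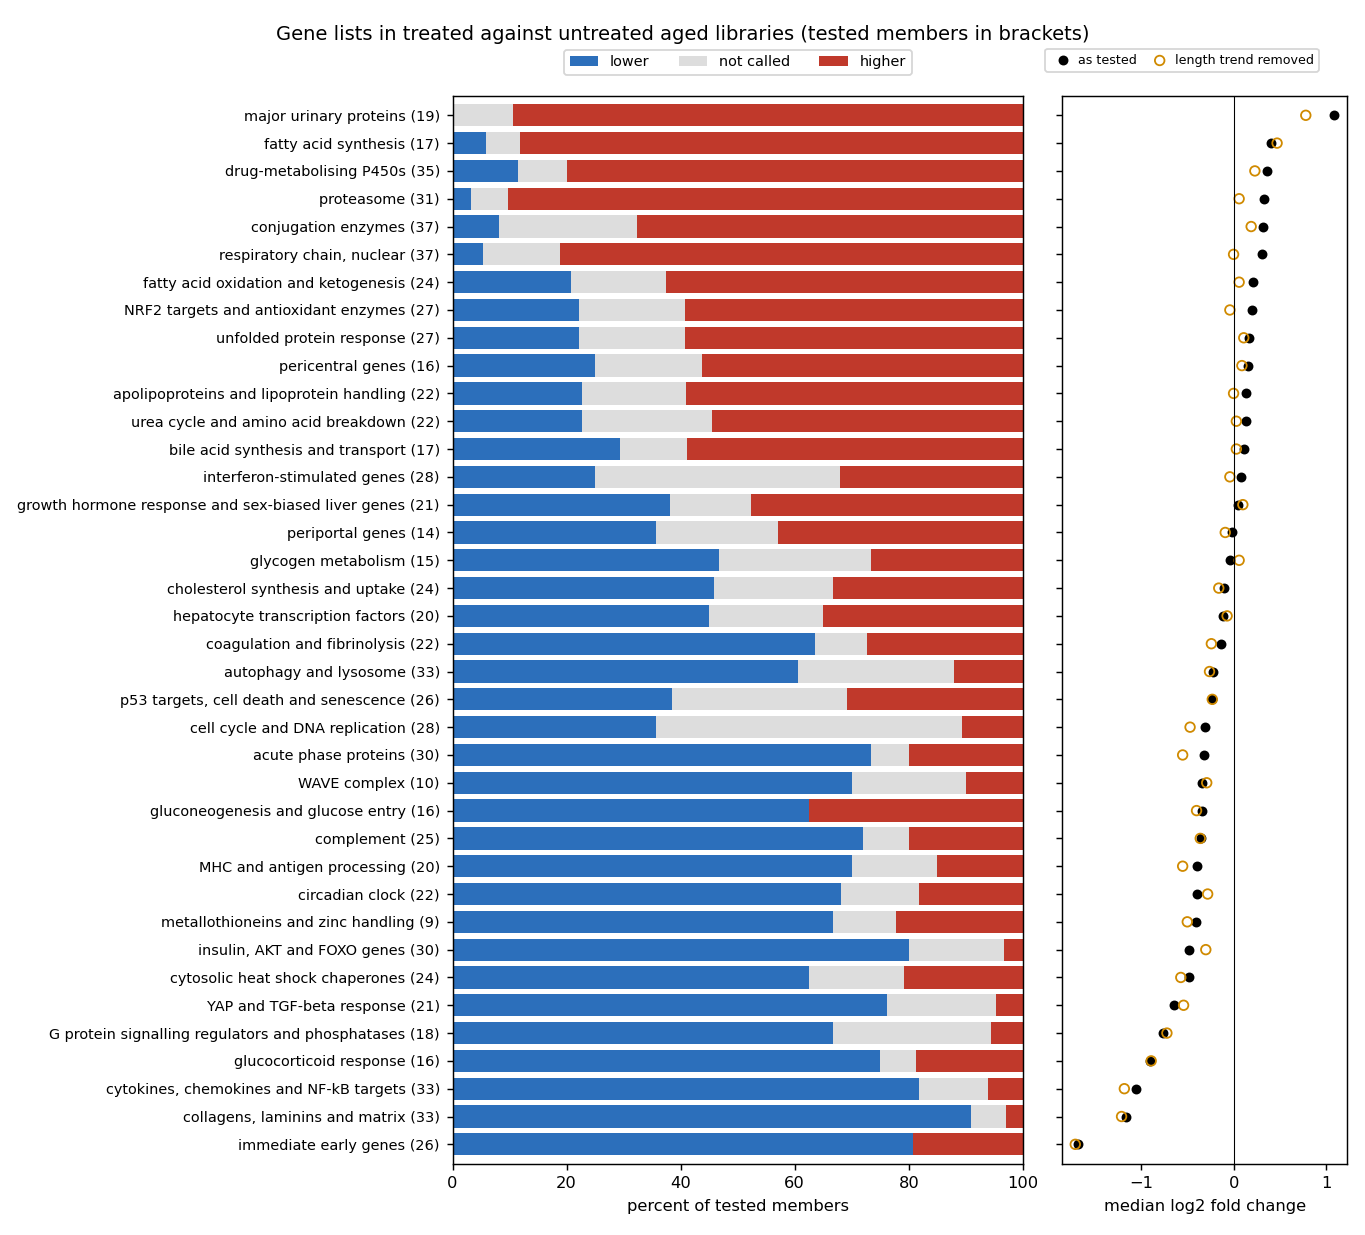
Percent of tested members called lower, not called and called higher for 38 gene lists (left), and the median log2 fold change as tested and with the length trend removed (right). Major urinary proteins lie highest, with a median of 1.09, and immediate early genes lowest, with -1.68.

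Genes of glucose output and insulin signalling moved both ways, with more of them lower in the treated libraries. Igfbp1, a binding protein of insulin-like growth factors that insulin represses, stood at 508, 500 and 495 CPM in the aged and at 47.7, 45.8 and 43.5 CPM in the treated libraries (-3.46, SE 0.033, adjusted p = 4e-48). The groups lay far apart, and young libraries, with a mean of 181 CPM, lay between them. Pck1 was at 3722, 3665 and 3630 CPM against 1529, 1532 and 1545 CPM (-1.26, SE 0.019, adjusted p = 3e-41), with a young mean of 3796 CPM. G6pc, which releases free glucose, fell by 0.50 and Ppargc1a, a coactivator of gluconeogenic genes, by 0.97. Of 16 genes of gluconeogenesis and glucose entry 10 were lower and 6 higher (median -0.34, or -0.40 after removal of that trend). The lowest was Pfkfb3, which makes an activator of glycolysis, at -3.01, and its relative Pfkfb1 rose by 1.15.

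Of 30 genes of insulin, AKT and FOXO signalling 24 were lower and 1 higher (median -0.48, or -0.30). Irs2, the insulin receptor substrate known to rise in fasting, fell from 157, 150 and 160 CPM to 34.5, 32.6 and 34.6 CPM (-2.20, SE 0.047). Insr, the receptor, fell by 0.74, and the transcription factors Foxo1 and Foxo3 by 1.05 and 1.17. Irs1, the other main substrate, was the exception: it rose by 0.58. Of 15 glycogen genes 7 were lower and 4 higher. Ppp1r3g, a glycogen-targeting subunit of protein phosphatase 1, was at 48.5, 46.0 and 45.1 CPM in aged libraries and under 1 CPM in each treated one (-6.45, SE 0.16), as in young libraries (0.323 CPM). Ppp1r3c, of the same family, fell by 1.12 and Ppp1r3b rose by 0.46. The median of the glycogen list was -0.04, or 0.06.

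Genes of fatty acid synthesis were higher. Of 17 members 15 were higher and 1 lower (median 0.40, or 0.47), and their summed level rose from between 13164 and 13230 CPM to between 17245 and 17410 CPM. Thrsp, a lipogenic nuclear protein, stood at 162, 153 and 152 CPM in aged and 476, 466 and 498 CPM in treated libraries (1.63, SE 0.027, adjusted p = 2.9e-39), and at 1410 CPM in the young. Me1, which supplies NADPH, rose by 1.30, Mlxipl, the glucose-sensing factor ChREBP, by 0.96, Fasn, the synthase itself, by 0.40 and Srebf1, the insulin-driven regulator SREBP1, by 0.52. The member that fell was Acaca, a carboxylase that makes malonyl-CoA (-0.25), while its relative Acacb rose by 0.90. With the length trend removed, 15 members were higher and 0 lower, so Acaca was no longer called lower. Elovl3, a fatty acid elongase whose level is known to follow sex and time of day, rose from 188, 193 and 192 CPM to 629, 599 and 634 CPM (1.70, SE 0.027).

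Cholesterol genes moved both ways: 8 were higher and 11 lower of 24 (median -0.10, or -0.16). Insig2, which retains SREBP in the endoplasmic reticulum, rose from 162, 160 and 167 CPM to 412, 422 and 429 CPM (1.37, SE 0.027). Idi1, an isomerase of the pathway, fell by 0.82. Of 24 genes of fatty acid oxidation and ketogenesis 15 were higher and 5 lower (median 0.21, or 0.06). With the length trend removed, 9 were higher and 5 lower. Cyp4a14 and Cyp4a10, fatty acid hydroxylases and classic targets of PPAR-alpha, rose by 2.06 and 1.54. Other genes known as targets of the same receptor fell: Angptl4, an inhibitor of lipoprotein lipase, by 2.34 and Cpt1a, which admits fatty acids to mitochondria, by 0.84. Ppard, the gene of a related receptor, rose from 6.81, 6.19 and 6.12 CPM to 29.2, 33.4 and 29.6 CPM (2.27, SE 0.091).

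Among 17 bile acid genes 10 were higher and 5 lower (median 0.11, or 0.03), against 7 and 7 with the length trend removed. The largest changes were those of a repressor and an enzyme. Nr0b2, the gene of the repressor SHP, stood at 14.5, 12.8 and 13.8 CPM in aged and 88.7, 94.3 and 94.6 CPM in treated libraries (2.76, SE 0.059, adjusted p = 5.3e-35). Cyp7a1, the rate-limiting enzyme of bile acid synthesis, stood at 95.9, 109 and 102 CPM against 24.2, 25.0 and 24.4 CPM (-2.06, SE 0.051, adjusted p = 1.6e-32). Cyp8b1, which sets the ratio of bile acids, fell by 0.54 and Cyp7b1, of the alternative pathway, rose by 0.58. Cyp26a1, which degrades retinoic acid, rose from 45.2, 43.0 and 42.7 CPM to 216, 213 and 203 CPM (2.27, SE 0.041), against 24.7 CPM in young libraries. For both Nr0b2 and Cyp26a1, all treated values lay above all aged and all young ones.

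Drug-metabolising enzymes were mostly higher. Of 35 tested genes of P450s, their reductase and their receptors 28 were higher and 4 lower (median 0.36, or 0.23), and of 37 conjugation enzymes 25 were higher and 3 lower (median 0.32, or 0.19). Cyp2c69 rose most, by 4.12, from a mean of 0.867 CPM, and Cyp2c40 rose from 1.96, 2.27 and 2.66 CPM to 32.9, 34.2 and 32.8 CPM (3.85, SE 0.11), while the abundant Cyp2c37 and Cyp2c70 rose by 0.76 and 1.21 and Cyp3a11 by 0.38. Reads of Cyp2c and Cyp3a genes can be shared between copies, so single values are uncertain. Of the conjugation enzymes the glutathione transferase gene Gstm1 rose by 0.58, Gstm2 by 1.07 and the glucuronosyltransferase gene Ugt2b1 by 0.71. Targets of NRF2 and antioxidant enzymes had 16 higher and 6 lower members of 27, with a median of 0.20. Once the trend with length was taken out, 8 were higher and 11 lower (median -0.04). Cat, catalase, rose by 0.29 and Gclc, which limits glutathione synthesis, by 0.49. Hmox1, heme oxygenase 1, went the other way, from 59.0, 62.1 and 58.2 CPM to 16.1, 16.7 and 14.2 CPM (-1.93, SE 0.061), and Nqo1 was not called (0.02, SE 0.13).

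Major urinary proteins, pheromone carriers that growth hormone pulses are known to induce in male liver, were higher in 17 of 19 tested members and lower in none, with a median of 1.09 (0.78 with the length trend removed). Their summed level rose from between 7624 and 7752 CPM to between 14840 and 16040 CPM. Mup17 stood at 15.9, 15.2 and 19.8 CPM in aged and 330, 221 and 335 CPM in treated libraries (4.12, SE 0.10), and at 304 CPM in the young. Mup18 spread widely among treated libraries, at 114, 31.6 and 59.3 CPM. These near-identical genes can trade reads. A wider list of growth hormone response and sex-biased genes had 10 higher and 8 lower of 21 (median 0.05, or 0.10). Bcl6, a repressor of female-biased genes, rose by 1.40 and Hsd3b5, a male-biased steroid dehydrogenase, by 0.88, while Egfr, the epidermal growth factor receptor, fell from 1029, 1040 and 1046 CPM to 431, 415 and 409 CPM (-1.31, SE 0.023).

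Cytosolic heat shock chaperones, which refold damaged proteins under the factor HSF1, were lower: 15 of 24 fell and 5 rose (median -0.48, or -0.57). Their summed level fell from between 6837 and 6925 CPM to between 3549 and 3590 CPM. Hspa1b, an inducible HSP70 gene at chr17:34956436-34959238 (GRCm38, GENCODE M21), stood at 608, 604 and 593 CPM in aged and 20.6, 24.1 and 18.6 CPM in treated libraries (-4.83, SE 0.045, adjusted p = 2.3e-48). Hspa1a, its near-identical neighbour at chr17:34969190-34972156, fell from 119, 120 and 111 CPM to 1.77, 1.60 and 1.55 CPM (-6.15, SE 0.089). Treated libraries thus stood near the young means of 18.8 and 1.69 CPM. Hsp90aa1, the inducible HSP90, fell by 1.42, the HSP70 co-chaperone Dnajb1 by 1.42, Hsph1 by 2.24 and the abundant Hspa8 by 1.09. The promoters of the HSP70 pair are shown because both genes fell together and their reads are hard to separate. They are the 250 bases before and 50 after the start in RefSeq (GRCm38.p6), on the minus strand at chr17:34972107-34972406 and chr17:34959189-34959488, with capitals for a heat shock element pair (GAANNTTC or TTCNNGAA, which are searched on both strands).
Hspa1a promoter: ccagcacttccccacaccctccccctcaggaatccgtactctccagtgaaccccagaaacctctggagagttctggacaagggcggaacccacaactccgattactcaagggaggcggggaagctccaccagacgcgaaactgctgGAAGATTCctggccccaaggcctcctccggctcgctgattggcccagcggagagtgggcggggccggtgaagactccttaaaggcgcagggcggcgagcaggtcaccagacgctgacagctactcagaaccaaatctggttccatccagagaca
Hspa1b promoter: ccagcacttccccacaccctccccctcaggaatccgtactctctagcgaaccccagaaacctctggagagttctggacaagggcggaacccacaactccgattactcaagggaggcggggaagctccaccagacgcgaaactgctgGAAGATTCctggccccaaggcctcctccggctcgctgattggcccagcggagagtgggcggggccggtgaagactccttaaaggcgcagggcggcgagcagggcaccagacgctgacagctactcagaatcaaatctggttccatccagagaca
The 2 windows matched at 296 of 300 positions, with the capitals in the same place. A pair of this kind was found in 15.1% of 27025 RefSeq promoters of this length, in 11.9% of those of tested genes, and in 9 of the 19 chaperone genes with a promoter in the table. Of those 9, 8 were lower and 0 higher. Among all 1205 tested genes with such a match, 34.7% were higher and 27.1% lower.

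Metallothioneins, small proteins that bind zinc and copper and that metals, glucocorticoids and inflammation are known to induce, fell as far. Mt1 stood at 168, 163 and 160 CPM in aged and 4.96, 4.26 and 3.53 CPM in treated libraries (-5.26, SE 0.050, adjusted p = 3.6e-48). Mt2 stood at 106, 95.5 and 97.3 CPM against 2.94, 2.30 and 2.17 CPM (-5.33, SE 0.061). Here the treated libraries were the farther from the young means, which were 1325 and 1007 CPM. Of 9 tested genes of metallothioneins and zinc handling 6 were lower and 2 higher (median -0.41, or -0.50). The zinc importer Slc39a14 fell by 1.18, and Slc30a10, a manganese exporter of the zinc transporter family, rose by 1.25. The promoters of the neighbouring pair (RefSeq, GRCm38.p6, plus strand, chr8:94178839-94179138 and chr8:94172368-94172667) are shown with capitals for the core of the metal response element (TGCACNC or TGCGCNC on either strand).
Mt1 promoter: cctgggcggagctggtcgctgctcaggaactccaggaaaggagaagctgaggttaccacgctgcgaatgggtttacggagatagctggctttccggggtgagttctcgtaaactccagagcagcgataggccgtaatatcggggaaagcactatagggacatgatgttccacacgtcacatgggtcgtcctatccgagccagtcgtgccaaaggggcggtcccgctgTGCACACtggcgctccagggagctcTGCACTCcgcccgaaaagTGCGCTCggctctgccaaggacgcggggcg
Mt2 promoter: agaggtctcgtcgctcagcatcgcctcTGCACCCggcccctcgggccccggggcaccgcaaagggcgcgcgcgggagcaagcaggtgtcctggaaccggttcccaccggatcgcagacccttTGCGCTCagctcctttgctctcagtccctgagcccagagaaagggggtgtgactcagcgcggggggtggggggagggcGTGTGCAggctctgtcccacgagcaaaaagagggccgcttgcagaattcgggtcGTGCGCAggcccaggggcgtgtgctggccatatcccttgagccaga
Mt1 had 3 matches and Mt2 had 4, and the windows agreed at 70 of 300 positions when laid side by side. The core was found in 25.6% of all promoters, in 35.5% of those of tested genes and in 4 of the 7 genes of the list with a promoter in the table. Among the 3602 tested genes with a match 31.5% were higher and 32.2% lower, close to the share among all genes.

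Of 26 immediate early genes 21 were lower and 5 higher (median -1.68, or -1.71). Atf3, a stress-induced factor, stood at 37.0, 36.8 and 37.6 CPM in aged and 2.04, 1.82 and 1.97 CPM in treated libraries (-4.25, SE 0.11). Jun, a subunit of AP-1, fell by 2.08, Klf10 fell by 2.49 and Maff fell by 3.84. Others rose, among them 3 genes known to respond fast. Fos, the partner of Jun, was at 36.4, 34.6 and 36.8 CPM against 72.6, 74.2 and 74.4 CPM (1.04, SE 0.053), Egr1 rose by 0.76 and Ier2 by 1.69. In young libraries Fos was at 1.75 CPM and Egr1 at 15.0 CPM, so for these genes the treated libraries were the farthest from the young ones. Regulators of G protein signalling and signalling phosphatases counted 12 lower and 1 higher among 18 (median -0.76, or -0.72). Rgs16, which shortens G protein signals, stood at 332, 329 and 325 CPM against 16.4, 16.7 and 15.7 CPM (-4.34, SE 0.043), and Dusp4 and Dusp6, phosphatases of MAP kinases, fell by 3.62 and 0.68. Of 16 glucocorticoid-responsive genes 12 were lower and 3 higher (median -0.90, or -0.89). Errfi1, an inhibitor of the EGF receptor, fell from 2314, 2278 and 2324 CPM to 888, 884 and 873 CPM (-1.39, SE 0.020). Tsc22d3, known as GILZ, fell by 0.87 and Fkbp5, a chaperone of the receptor, by 0.93. Pck1, Mt2 and Per1 are members of this list as well as of others.

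Clock genes, whose products form a daily feedback loop in which CLOCK and BMAL1 drive their own repressors, counted 15 lower and 4 higher among 22 (median -0.39, or -0.28). The sources used here do not give the time of tissue collection. Repressor genes moved both ways. Per1 stood at 59.3, 63.3 and 62.4 CPM in aged and 5.09, 3.39 and 2.97 CPM in treated libraries (-4.01, SE 0.086), and Dbp at 50.5, 50.8 and 53.1 CPM against 2.23, 3.09 and 2.53 CPM (-4.29, SE 0.082). The young means, 63.1 and 53.6 CPM, lay near those of the untreated aged libraries. Bhlhe40, the repressor DEC1, fell from 962, 987 and 979 CPM to 75.7, 79.1 and 79.5 CPM (-3.64, SE 0.029), Per3 by 2.44 and Nr1d1, REV-ERB alpha, by 1.93. The young means of Bhlhe40 and Nr1d1, 267 and 69.2 CPM, did not lie near the untreated aged means of 976 and 393 CPM. Their treated means were 78.1 and 103 CPM. Arntl, the gene of BMAL1, rose by 1.89, its partner Npas2 by 3.29, Cry1 by 1.99 and Nfil3 by 0.56. Per2 was not called (0.04, SE 0.089). The Per1 promoter of RefSeq (GRCm38.p6, plus strand, chr11:69098699-69098998, a start inside the GENCODE gene) is shown with its E-box, the CLOCK and BMAL1 element CACGTG, in capitals.
Per1 promoter: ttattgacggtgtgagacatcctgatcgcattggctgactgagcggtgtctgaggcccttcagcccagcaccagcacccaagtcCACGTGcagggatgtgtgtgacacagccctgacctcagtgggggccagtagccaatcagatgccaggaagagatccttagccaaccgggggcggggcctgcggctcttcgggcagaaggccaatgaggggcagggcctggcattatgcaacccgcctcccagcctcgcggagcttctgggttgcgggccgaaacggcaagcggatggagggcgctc
An E-box stood in 7.24% of all promoters, in 10.1% of those of tested genes and in 5 of the 18 clock genes with a promoter in the table (Per1, Cry1, Tef, Bhlhe41 and Ciart), of which 4 were lower and 1 higher. Among the 1026 tested genes with an E-box 30.2% were higher and 34.8% lower.

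Of 22 coagulation and fibrinolysis genes 14 were lower and 6 higher (median -0.14, or -0.24). Fga and Fgb, chains of fibrinogen, fell by 0.28 and 0.29 and the coagulation factor gene F5 fell by 0.53. Genes of p53 targets, cell death and senescence had 8 higher and 10 lower members of 26 (median -0.23 with and without the trend), and YAP and TGF-beta response genes 1 higher and 16 lower of 21 (median -0.64, or -0.54). In these, the stress hormone gene Gdf15 fell by 1.91 and Gadd45b fell by 4.15, and the matricellular genes Thbs1 and Ccn1 by 4.09 and 1.27.

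Plasma proteins of the acute phase, which inflammation raises through IL-6, counted 22 lower and 6 higher among 30 (median -0.32, or -0.55). Orm2, an orosomucoid, stood at 105, 107 and 104 CPM in aged and 16.1, 18.3 and 19.4 CPM in treated libraries (-2.56, SE 0.052). Il6ra, the IL-6 receptor, fell by 2.18, Lcn2 by 1.68 and Saa1 by 0.84. Hamp, the iron hormone hepcidin, rose from 431, 417 and 426 CPM to 888, 880 and 968 CPM (1.10, SE 0.029), which puts it near its young mean of 858 CPM. Complement genes counted 18 lower and 5 higher among 25 (median -0.35, or -0.36), with C4b down by 0.64 and C3 by 0.34. Apolipoprotein and lipoprotein genes went the other way as tested, with 13 higher and 5 lower of 22 (median 0.13). With the length trend removed, 10 were higher and 9 lower (median -0.00). Apoc1 rose by 0.80, Apoa4 by 1.04 and Apob, whose transcript is far longer, fell by 0.46. Apoa1 was not called (0.00, SE 0.019, adjusted p = 0.93).

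Of 20 hepatocyte transcription factors 7 were higher and 9 lower (median -0.11, or -0.07). Cebpb, an activator of acute phase and gluconeogenic genes, fell from 336, 338 and 337 CPM to 95.3, 101 and 93.0 CPM (-1.81, SE 0.030) and Foxa3 fell by 1.82, while Prox1 rose by 1.02. Genes known from the pericentral zone of the liver lobule counted 9 higher and 4 lower among 16 (median 0.16, or 0.09), and periportal genes 6 higher and 5 lower among 14 (median -0.02, or -0.09). Urea cycle and amino acid genes had 12 higher and 5 lower of 22 (median 0.13, or 0.03), among them Tat, which opens tyrosine breakdown (0.50), Arg1, arginase (0.39), and Cps1, the entry enzyme of the urea cycle (-0.37). With the length trend removed, 9 genes of this list were higher and 9 lower.

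Markers of macrophages, endothelium, stellate cells and neutrophils were lower in the treated libraries, and those of some other cell types were not. All 10 markers of Kupffer cells and macrophages were lower (median -1.06, or -1.32), and their summed level fell from between 474 and 479 CPM to between 195 and 202 CPM. Adgre1, which encodes F4/80, stood at 28.9, 31.5 and 29.1 CPM in aged and 4.52, 4.01 and 4.86 CPM in treated libraries (-2.74, SE 0.10), while Clec4f, specific to Kupffer cells, fell by 0.90. All 8 endothelial markers were lower (median -1.69, or -1.59), with a sum of 223 to 234 CPM against 81.1 to 89.2 CPM. Of 9 stellate cell and fibroblast markers 7 were lower and 0 higher (median -0.97, or -1.06; 398 to 409 CPM against 162 to 173 CPM), and all 6 tested neutrophil markers were lower (median -2.18, or -2.61; 17.9 to 18.3 CPM against 3.31 to 4.25 CPM). In bulk tissue, fewer cells of a type and less RNA per cell cannot be told apart. Hepatocyte markers moved little in sum, from between 156690 and 158559 CPM to between 153206 and 158449 CPM, with 3 higher and 8 lower of 12 (median -0.19, or -0.25). Globin and heme genes of red cells were higher in 5 of 5 tested (median 0.71, or 0.31; 265 to 268 CPM against 391 to 401 CPM). Of 5 cholangiocyte markers 1 was higher and 0 lower (median 0.44, or 0.46). Of 5 tested T and natural killer cell markers 1 was lower (median 0.38, or 0.11), and B and plasma cell markers had 1 higher and 1 lower of 6 (median -0.28, or -0.48).

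Lists of matrix and immune genes were mostly lower as well. Of 33 genes of collagens, laminins and matrix 30 were lower and 1 higher (median -1.16, or -1.21), with Col14a1 down by 1.92, the basement membrane gene Hspg2 by 1.93 and Fn1, fibronectin, which hepatocytes also make, by 0.60. Of 33 cytokines, chemokines and NF-kB targets 27 were lower and 2 higher (median -1.05, or -1.18). Il1b, interleukin 1 beta, stood at 18.0, 19.7 and 17.8 CPM against 2.37, 1.52 and 2.14 CPM (-3.20, SE 0.14), and the feedback inhibitors Nfkbia and Tnfaip3 fell by 1.22 and 2.70. Of 20 genes of MHC and antigen processing 14 were lower and 3 higher (median -0.39, or -0.55), led by the class II genes Cd74 and H2-Ab1, both at -1.67. Interferon-stimulated genes moved both ways, with 9 higher and 7 lower of 28 and a median of 0.08, or -0.04 once the trend with length was taken out. Irgm1 rose by 0.71 and Oasl1 by 1.18, and Irf8, a factor of myeloid cells, fell by 1.57. These lists moved with the summed macrophage, endothelial and stellate cell markers given above, whose part in the result was not tested.

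Autophagy and lysosome genes counted 20 lower and 4 higher among 33 (median -0.22, or -0.26). Ulk1, the kinase that starts autophagy, stood at 141, 145 and 144 CPM in aged and 46.9, 50.5 and 51.4 CPM in treated libraries (-1.53, SE 0.037). Atg14 fell by 1.63 and Gabarapl1, of the ATG8 family, by 0.96. The unfolded protein response of the endoplasmic reticulum had 16 higher and 6 lower of 27 (median 0.17, or 0.11). The chaperones and folding enzymes Calr, Manf and Pdia3 rose by 0.74, 0.92 and 0.60, Hspa5, the chaperone BiP, by 0.23 and Xbp1 by 0.53. Herpud1, of the degradation arm, fell from 963, 977 and 948 CPM to 256, 263 and 259 CPM (-1.89, SE 0.024), and Ddit3, the death factor CHOP, fell by 1.02. The lowest member was Chac1, which degrades glutathione, at -2.36, and the sensor genes Ern1 and Atf6 fell by 0.90 and 0.62. Cell cycle genes lay low, summing to 171 to 178 CPM in aged libraries, with 3 higher and 10 lower of 28 (median -0.31, or -0.47).

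Short, abundant housekeeping families were higher as tested, and their medians came nearer to 0 or turned with the length trend removed. Of 37 nuclear respiratory chain genes 30 were higher and 2 lower (median 0.31), but 13 and 12 with the length trend removed (median -0.00). Of 31 proteasome genes 28 were higher and 1 lower (median 0.33), against 13 and 1 without the trend (0.06). Of 81 cytosolic ribosomal protein genes 64 were higher and 3 lower (median 0.21), against 9 and 49 without the trend (-0.14). Mitochondrial ribosomal proteins, with 68 higher and 0 lower of 77 (median 0.37), had 37 and 6 without it (0.16). The aminoacyl tRNA synthetases, which load amino acids and are longer genes, had 23 higher and 0 lower of 34 (median 0.26), against 21 and 2 without it (0.18).

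Zinc finger genes formed a family that was higher both with and without the length trend. They were counted by the symbols Zfp, Zkscan and Zscan. Most encode C2H2 factors, though a few, such as the RNA-binding Zfp36, do not. Of 344 tested, 161 were higher and 48 lower, and the median was 0.36, or 0.39 once the trend with length was taken out. Counts differed by level. Under 5 CPM, 101 of 187 were higher and 9 lower (median 0.63, against -0.16 for all genes of that level). At 5 to 20 CPM, 49 of 121 were higher and 19 lower (median 0.12, against 0.07). At 20 CPM and over, 11 of 36 were higher and 20 lower (median -0.14). Zfp950 stood at 7.59, 7.20 and 8.16 CPM in aged and 22.3, 19.6 and 21.7 CPM in treated libraries (1.47), and Zfp609 at 32.5, 34.3 and 33.5 CPM against 16.7, 14.9 and 13.7 CPM (-1.14).

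The genes of the series title were low or changed little. Cyfip2, a subunit of the WAVE complex that nucleates branched actin, at chr11:46193850-46312859, stood at 3.17, 3.28 and 3.77 CPM in aged and 1.06, 1.17 and 1.17 CPM in treated libraries (-1.59, SE 0.26, adjusted p = 8.6e-07). The treated values lay near the young mean of 1.01 CPM. Its more abundant relative Cyfip1 was at 50.1, 50.4 and 50.6 CPM against 39.2, 37.7 and 39.7 CPM (-0.38, SE 0.055). Of 10 tested WAVE complex genes 7 were lower and 1 higher (median -0.34, or -0.29). Nckap1l, the subunit of blood cells, fell by 1.44 and the ubiquitous Nckap1 by 0.15, while Brk1, the smallest subunit, rose by 0.34. With the length trend removed, 8 members were lower and 0 higher, so Brk1 was no longer called higher. Akt1 was at 48.8, 46.5 and 48.5 CPM against 43.1, 43.2 and 43.9 CPM (-0.14, SE 0.049, adjusted p = 0.01) and Akt2 fell by 0.12. Both calls were lost with upper-quartile scaling (adjusted p = 0.13 and 0.18), and that of Akt2 also with the length trend removed (0.74). The counts are of transcripts, so phosphorylation of AKT is outside what they measure.

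**Figure D5:**
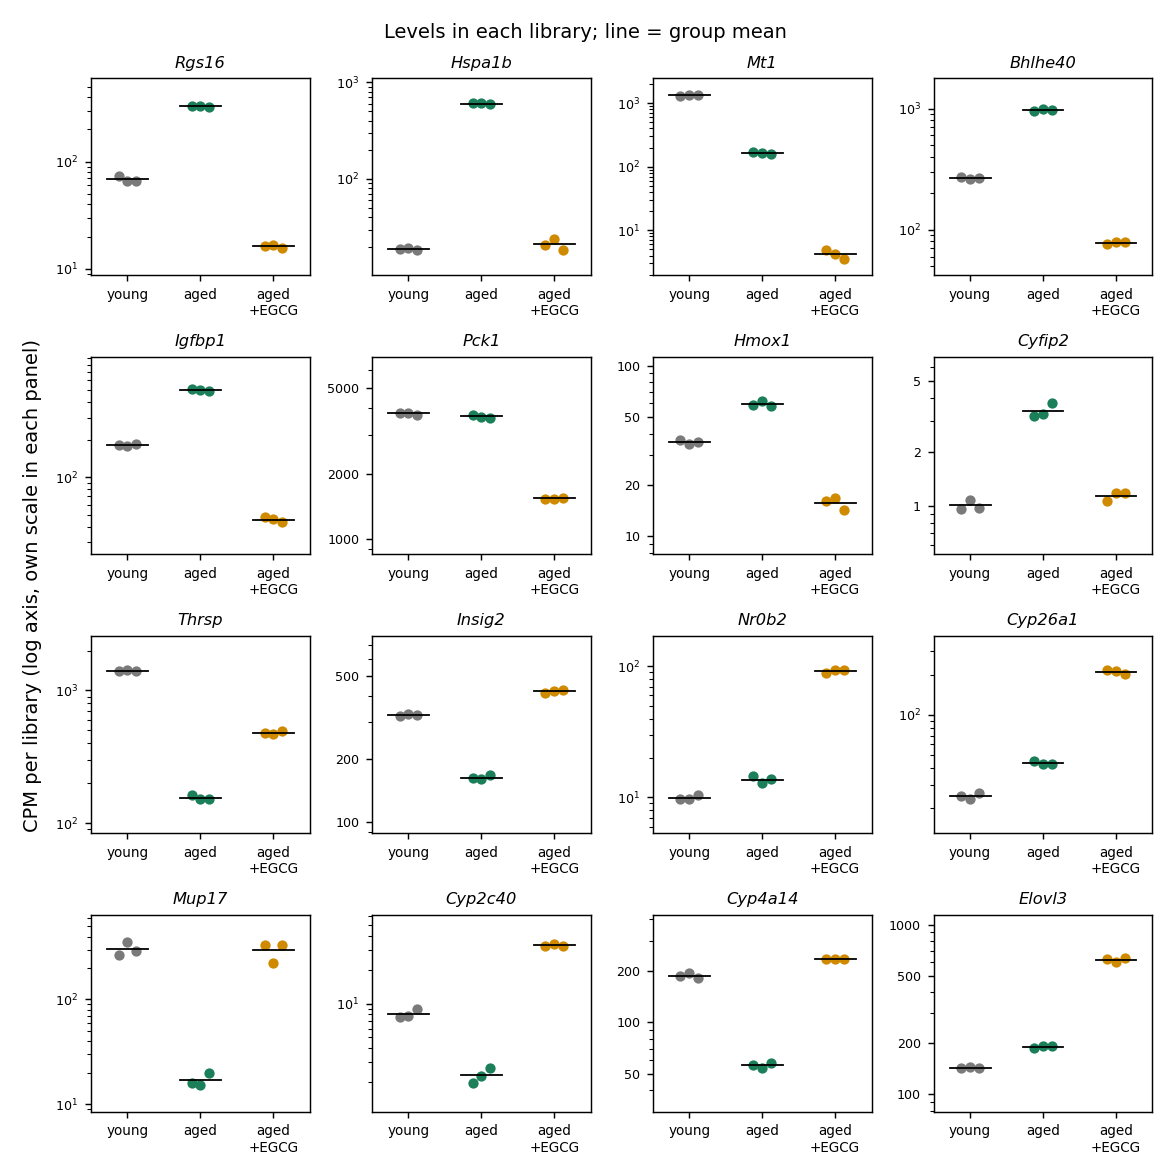
CPM of 16 genes in each of the 9 libraries (y axis, log scale, own range in each panel) for young, untreated aged and treated aged groups, with a line at each group mean. These genes were named by a rule that asked for no overlap between treated and untreated aged libraries. In every panel the 3 treated points therefore lie apart from the 3 untreated aged points. Relative to the young points they lie close for Hspa1b and Cyfip2 and far off for Mt1.

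Some calls rested on libraries that did not sit together. The groups overlapped for 354 of the genes called. Leaving out a library lost 671 to 735 of all calls, whichever of the 6 it was. A fit with fewer libraries loses calls near the threshold by itself, so these totals do not show that a library differed. Examples among the genes most variable in the treated libraries follow. Rps27a, a ribosomal protein fused to ubiquitin, was at 53.8, 86.8 and 54.8 CPM in aged and 109, 62.5 and 77.0 CPM in treated libraries. The groups overlapped, and the call (0.35, adjusted p = 0.032) was lost when aged replicate 1, aged replicate 3 or treated replicate 1 was left out, falling to 0.10 in the last case. Mup8 was at 28.7, 6.94 and 5.52 CPM against 28.3, 18.2 and 16.2 CPM (0.62, adjusted p = 0.033) and lost its call when aged replicate 2, aged replicate 3 or treated replicate 1 was left out, with values of 0.24 to 0.34. Mcrs1 (0.35) lost its call without aged replicate 1, aged replicate 2 or treated replicate 3, and came to 0.10 in the last case.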

How the data were processed

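RNA from 9 mouse libraries was prepared with a Qiagen column kit and a SMARTER mRNA-seq kit, per the labels' protocols. The authors deposited raw counts and FPKM values per gene symbol. The submitters' processing notes name GRCm38 and mm10, and the sources used here do not give the aligner, counter, annotation or strand setting. Library totals were 34240500 to 39922044 counts.

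Counts were tested with edgeR 4.0.16 (R 4.3.3): TMM factors, quasi-likelihood fit over the 9 libraries, 1 coefficient for each group, contrast of treated minus untreated aged, Benjamini-Hochberg adjustment over 12667 genes with at least 10 counts in at least 3 of the 6 libraries compared. Alternatives used limma 3.58.1 on log2(FPKM + 1 or 0.1), DESeq2 1.42.0, other scaling factors and filters, a replicate block, a gene length trend offset and leaving out each library. Gene lengths are those implied by the deposited counts and FPKM. The length trend was a smooth curve on log length, fitted for each library to its log CPM minus the mean over all libraries. Genes of low mean CPM were left out of this fit, and the curves were removed as offsets.

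The comparison, the 38 lists and 18 symbol families and the cell type markers were chosen with earlier results of these data known, and no list was tested as a set. Genes were named by rule: called, no overlap between groups, and named symbols, for the 12 largest gains and losses in CPM, the 12 largest fold changes each way at 20 CPM or more, up to 4 list members of smallest p, 8 variable genes, the Cyfip and Akt genes and the 10 most abundant. Some genes reached by the rule are not reported here. Other list members, markers and zinc finger genes were given after their values had been seen, as was the split of zinc finger genes by level. Coordinates are of GENCODE M21 on GRCm38, and promoters of RefSeq GRCm38.p6 (first listed start). Overlapping genes and near-identical copies could share reads. On simulated counts for 12667 genes with 200 changed, the test found 34% of those changed 1.2-fold, 78% at 1.5-fold, 90% at 2-fold and 98% at 4-fold, and 0.088% of unchanged genes were called. The simulation gave all genes the same coefficient of variation and no length trend, and it changed far fewer genes than were called here. These rates therefore need not hold for the reported calls. Libraries of the same group differed by more than counting noise, with a chi-square of 3.77 to 4.79 per degree of freedom.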

Additional observations from a re-analysis of the deposited data

How the results depend on the processing

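Genes called numbered 8059 as reported and 6292 (replicate block) to 8164 (upper-quartile factors) under the alternatives, with 7452 to 7586 when a library was left out, 7932 by DESeq2 and 7816 to 7938 on FPKM values. The share of calls that were higher was 50.2% as reported, 56.9% with upper-quartile factors, which moved the median of all genes from 0.01 to 0.07, and 46.2% with the length trend removed. The last setting reversed 153 called genes. Calls of at least 2-fold fell from 1668 to 377 on log2(FPKM + 1), a scale that compresses changes of low genes. Same-numbered libraries did not deviate together (correlations -0.024, 0.007 and -0.039), so the replicate block, which lost 1887 calls, is no evidence of weaker effects. Of 177 named genes, 12 changed their side of the threshold or their sign under some alternative. The sign turned for Cyp2e1 (0.01 with upper-quartile factors), Rps27a (-0.08 with the replicate block and -0.00 with the length trend removed), and Alb and Apoa1 (-0.05 and -0.32 with the length trend removed). List medians changed sign for glycogen metabolism (-0.12 to 0.06), NRF2 targets (-0.04 to 0.26), periportal genes (-0.09 to 0.04), interferon-stimulated genes (-0.04 to 0.14) and cytosolic ribosomal proteins (-0.14 to 0.27). The same held for the symbol families of solute carriers (-0.07 to 0.02), histones (-0.65 to 0.23) and Rab GTPases (-0.08 to 0.07). It also held for translation initiation factors (-0.04 to 0.11) and vacuolar sorting proteins (-0.07 to 0.06). Of genes below 1 CPM 30.2% were called, and what depth contributed was not tested.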
